A study of Homo sapiens with 5 samples.

Results

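Collagens, laminins and matrix glycoproteins, the structural proteins of the extracellular matrix, were followed across 5 arrays of 2 human lung cancer cell lines in which the scaffold gene NEDD9 had been lowered or raised. The set holds 45 genes. Of these, 38 had a feature (a transcript cluster that averages probes over the exons of a gene) annotated with that symbol alone, out of 14232 genes measured in this way. HSPG2, LAMB3, COL7A1 and COL18A1 lay only on features that also carry another symbol (4 genes), and AGRN, COL17A1 and LAMA3 had no feature listed under their name (3 genes); these 7 were not analysed here. FN1 was the only member with more than 1 such feature, and the brighter was used.

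In A549, an established lung adenocarcinoma line, there was 1 array with short hairpin 1 and 1 with short hairpin 2 against NEDD9 (n = 2 hairpins), set against 1 control array (n = 1). The labels do not say which construct, if any, the control cells carried. All 3 share the inactivating LKB1 mutation (kinase gene STK11) that the submitters give for A549, and its raised NEDD9. In CRL-5907, another lung cancer line, which per the submitters has intact LKB1 and little NEDD9, 1 array with NEDD9 overexpression (n = 1) was set against 1 control array (n = 1). The labels give no vector, no promoter, no time after the manipulation and no statement on clones, pools or separate cultures. NEDD9 itself had log2 levels of 8.35 and 8.52 with hairpins 1 and 2, against 8.94 on the A549 control. It was at 9.49 with overexpression, against 4.66 on the CRL-5907 control, so the knockdown was partial and the overexpression large.

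The extracellular matrix has a basement membrane part and an interstitial part. Basement membranes are sheets under epithelia in which laminin trimers of an alpha, a beta and a gamma chain and a collagen IV network are joined by nidogens, perlecan and agrin. The interstitial matrix holds fibrils of collagens I, III and V, microfibrils of fibrillins and adhesive glycoproteins such as fibronectin, and most of it is made by fibroblasts, although carcinoma cells can make parts of it. NEDD9 is a scaffold of the Cas family at focal adhesions, where integrins bind these proteins.

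All values are normalised log2 expression levels, so a difference of 1 is a factor of 2, and values of different genes cannot be ranked against each other because their probes differ. The median over all genes lay between 5.70 and 5.86 on the 5 arrays, and a value below its array's median is treated here as not shown to exceed background. By that measure 20 of the 38 members lay below the median on all 5 arrays and 9 lay above it on all 5. Over all genes 6241 of 14232 lay below the median on all 5 arrays. The 20 members below the median throughout include COL1A2, COL3A1, COL5A1, SPARC, LUM, DCN and BGN, which fibroblasts express strongly. Other matrix members did not follow them: COL6A1, COL6A2, FBLN1 and THBS1 were among the 9 above the median on all 5 arrays. COL1A1 was above it on both CRL-5907 arrays (5.78 with overexpression and 5.88 on the control) and below it on the A549 arrays. Of the fibroblast markers 7 of 7 measured genes were below the median on every array, with FAP at 1.62 on all 5. Of the leukocyte markers 4 of 6 were, with the common marker PTPRC at 1.72 on all 5, and CD14 and CD68 were the exceptions. Of the epithelial markers 1 of 8 measured genes was below the median on every array, ESRP1, at 3.29 to 4.91. CLDN4 was below the median on the A549 arrays, at 3.36 to 3.83, and above it on the CRL-5907 arrays. The epithelial keratin KRT8 lay between 11.04 and 11.76. The normalisation can give several arrays exactly the same value. Fewer than 5 distinct values were found for 21 of the 38 members and for 36% of all genes, and COL6A2 stood at 6.18 on all 5 arrays. A difference of 0 therefore does not show that a gene was unchanged. Pairs of arrays from 1 line had correlations of about 0.989 to 0.991 over all features, and pairs across lines had 0.948 to 0.953.

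**Figure D1:**
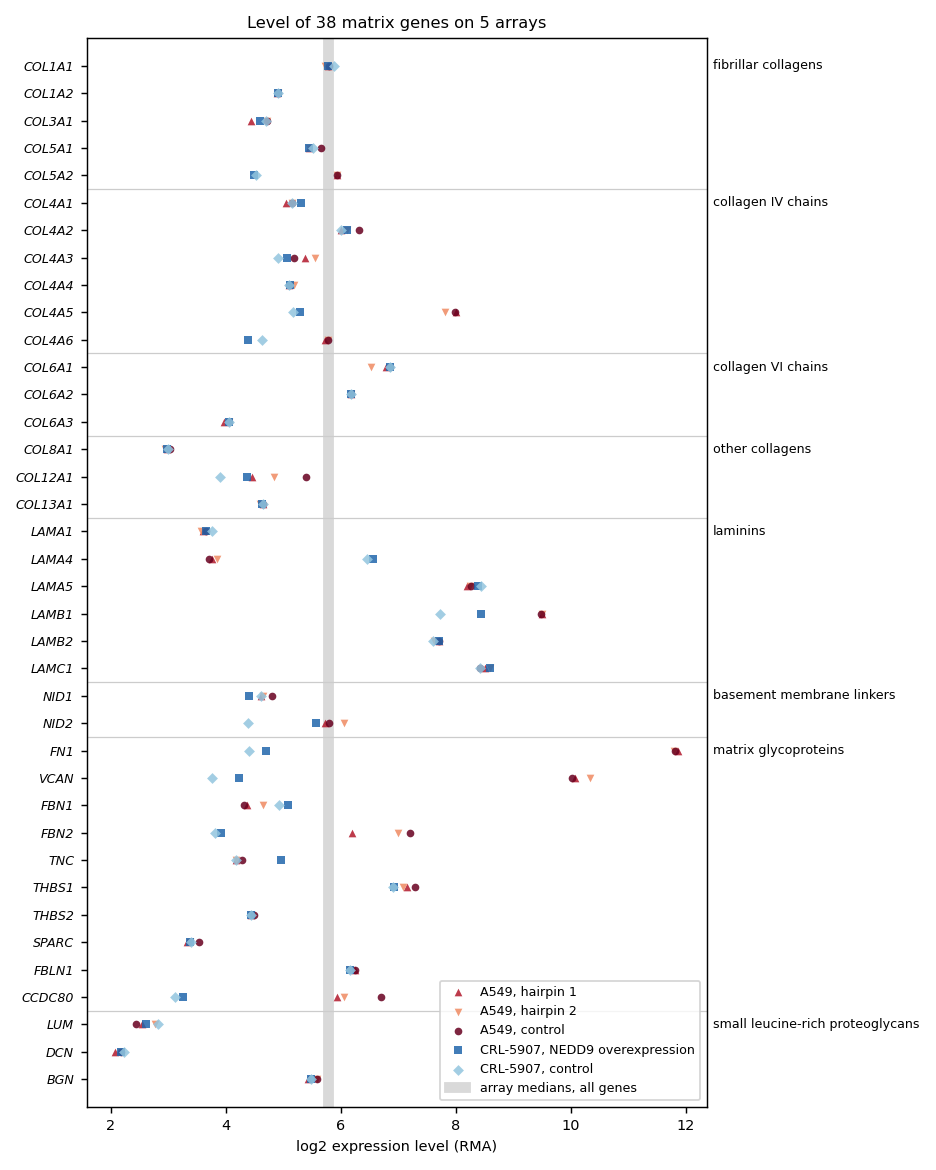
Log2 expression level of the 38 measured members (rows, grouped by role) on each of the 5 arrays, with hairpin arrays as triangles, the A549 control as a circle, the overexpression array as a square and the CRL-5907 control as a diamond. The grey band spans the 5 array medians over all genes, 5.70 to 5.86, and FN1 and VCAN show the widest gap between the lines.

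Between the 2 lines the widest gaps among the members were in fibronectin and versican. Between the control arrays 11 of the 38 members differed by at least 2-fold, 10 higher in A549 and 1 lower. Over all genes 6.44% were at least 2-fold higher in A549 and 3.53% at least 2-fold lower, with 9.96% in either direction. The median difference was 0.08 over the members and 0.01 over all genes. With 1 control array a line this comparison has no test of its own. A limma fit over all 5 arrays, 3 of A549 and 2 of CRL-5907 with the manipulations left in the spread, called 10 of the 38 members, with Benjamini-Hochberg adjusted p-values over 14232 genes held to 0.05. These were 8 higher and 2 lower in A549. It called 27.7% of all genes, 17.7% higher and 10.0% lower, so the share of members called was near that background. A further quantile normalization moved the higher share of all its calls to 52.9%, against 63.8%. The same test of the 2 control arrays alone, within a model of 4 groups and with the hairpins as the only source of spread, called 0 members and 0 genes (4784 genes by unadjusted p at 0.05).

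FN1 encodes fibronectin, the adhesive glycoprotein that integrins assemble into fibrils. It had levels of 11.87 with hairpin 1, 11.80 with hairpin 2 and 11.81 on the A549 control, against 4.69 with overexpression and 4.41 on the CRL-5907 control. All 3 A549 arrays lay far above both CRL-5907 arrays, and the 2 CRL-5907 values were below their array medians. The control difference of 7.40 may understate the true one for that reason. The 5-array fit gave 7.28 ± 0.10 (SE, adjusted p = 0.000571). The dimmer FN1 feature gave the same direction and a smaller difference, 6.38 on the A549 control against 3.88 on the CRL-5907 control. With the mean of both features the FN1 control difference was 4.95. VCAN encodes versican, a large chondroitin sulfate proteoglycan of provisional matrix. Its levels were 10.07 and 10.34 with hairpins 1 and 2 and 10.01 on the A549 control, against 4.22 with overexpression and 3.75 on the CRL-5907 control. Again the lines did not overlap, and the fitted difference was 6.16 ± 0.19 (SE, adjusted p = 0.000671). It too may be understated, since both CRL-5907 values were below their array medians.

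The FN1 promoter is shown because the brighter FN1 feature had the widest gap between the lines, although VCAN (6.27) was ahead of FN1 when the features of a gene were averaged. The stretch holds the 250 bases before the annotated start, read 5′ to 3′ on the minus strand at chr2:215436069-215436318 of GRCh38.p14, from NCBI RefSeq. Capitals here and in the promoters below mark any of 4 motifs on either strand: the cyclic AMP response element TGACGTCA, the AP-1 site TGANTCA, the TATA core TATAA and the GC box GGGCGG, whose hits can overlap one another.
FN1: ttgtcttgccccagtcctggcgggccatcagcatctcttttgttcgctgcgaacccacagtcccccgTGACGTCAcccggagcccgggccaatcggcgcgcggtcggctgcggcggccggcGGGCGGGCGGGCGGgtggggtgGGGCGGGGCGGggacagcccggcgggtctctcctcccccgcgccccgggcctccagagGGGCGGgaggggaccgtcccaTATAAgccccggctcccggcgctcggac
A full cyclic AMP response element was found once, beginning at position -183, where -1 is the base before the start, together with 6 GC boxes and a TATA core at -28. Of all 35116 promoter windows of this length, 1.65% hold that element, 6.57% an AP-1 site, 18.9% a TATA core and 42.6% a GC box. RefSeq windows were at hand for 29 of the 38 measured members, and FN1 was the 1 gene among them with the cyclic AMP response element. None of the 29 had an AP-1 site of these letters, 6 had a TATA core and 20 had a GC box. The arrays do not measure which promoter was used.

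Among the other glycoproteins, both the fibrillin FBN2 and the secreted matrix protein CCDC80 were at A549 levels far above CRL-5907. FBN2, which builds microfibrils mainly in development, had 6.20 and 6.99 with the hairpins and 7.21 on the A549 control, against 3.92 with overexpression and 3.81 on the CRL-5907 control. The fit gave 2.94 ± 0.34 (SE, adjusted p = 0.00787). This call was lost without the overexpression array (adjusted p = 0.0596) or without the CRL-5907 control (adjusted p = 0.0643). CCDC80 had 5.93 and 6.05 with the hairpins and 6.69 on the A549 control, against 3.26 and 3.12 in CRL-5907 with overexpression and control, a fitted difference of 3.03 ± 0.26 (SE, adjusted p = 0.00423). The CRL-5907 values of FBN2 and CCDC80 were below the array medians, so both differences may be understated. FBN1, the fibrillin of adult tissue, went the other way at lower levels. It had 4.37, 4.64 and 4.31 on the A549 arrays (hairpin 1, hairpin 2, control) against 5.08 with overexpression and 4.93 on the CRL-5907 control. All 5 values were below the array medians. The fitted FBN1 difference was -0.57 ± 0.13 (SE, adjusted p = 0.0386), and the call was lost in 4 of the 5 fits that left out 1 array, with adjusted p = 0.125 without hairpin 1, 0.0935 without the A549 control, 0.181 without the overexpression array and 0.122 without the CRL-5907 control. THBS1, the matricellular thrombospondin that binds CD47, lay above the median on all arrays. Its 7.15, 7.08 and 7.29 in A549 were above the 6.93 and 6.91 in CRL-5907, a difference of 0.25 ± 0.08 (SE) that missed the threshold (adjusted p = 0.0864). TNC, THBS2, SPARC and FBLN1 had control differences of 0.05 to 0.14.

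**Figure D2:**
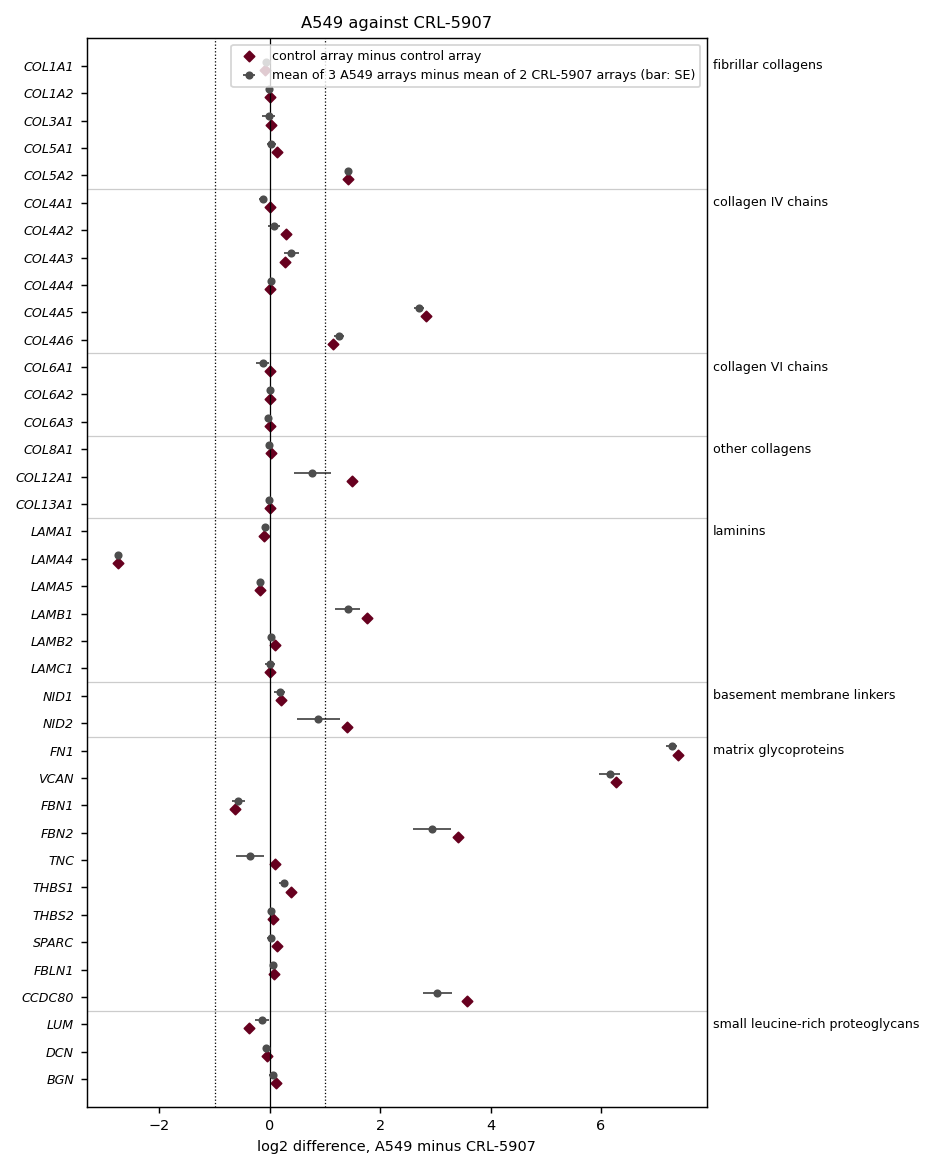
Log2 difference, A549 minus CRL-5907, for the 38 measured members, as the mean of 3 A549 arrays minus the mean of 2 CRL-5907 arrays with its limma SE (circles and bars) and as the difference of the control arrays (diamonds). Dotted lines mark a 2-fold difference; FN1 (7.40 between controls) and VCAN (6.27) lie farthest to the right and LAMA4 (-2.76) farthest to the left.

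Collagens split by chain. Of the fibrillar collagens only COL5A2, a chain of collagen V, which regulates the width of collagen I fibrils, differed by 2-fold between the lines among the 5 measured. It had 5.93 and 5.94 with the hairpins and 5.94 on the A549 control, against 4.49 with overexpression and 4.53 on the CRL-5907 control (1.43 ± 0.04, SE, adjusted p = 0.000586). Its partner chain COL5A1 had 5.45, 5.44 and 5.65 in A549, in the same order, against 5.45 and 5.52 in CRL-5907, and these ranges overlapped. COL1A1, COL1A2 and COL3A1 had control differences of -0.09 to 0.02. The 3 collagen VI genes, whose chains form beaded microfilaments, had control differences of 0.00. COL12A1, a collagen that decorates fibrils, had 4.45 and 4.84 with the hairpins and 5.39 on the A549 control, against 4.36 with overexpression and 3.90 on the CRL-5907 control. Its control difference of 1.49 passed 2-fold. The 5-array difference of 0.77 ± 0.33 (SE) did not pass the test (adjusted p = 0.185), and all 5 values were below the array medians. With the hairpin arrays in place of the A549 control the COL12A1 difference was 0.75.

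The 6 collagen IV genes lie in the genome as 3 head-to-head pairs, each pair reading away from a shared stretch of DNA. In RefSeq 126 bases separate the starts of COL4A1 and COL4A2 on chromosome 13, 418 those of COL4A4 and COL4A3 on chromosome 2, and 379 those of COL4A6 and COL4A5 on the X chromosome. The pair on X was the one called between the lines. COL4A5 had 8.0 and 7.81 with the hairpins and 7.98 on the A549 control, against 5.29 with overexpression and 5.16 on the CRL-5907 control (2.70 ± 0.09, SE, adjusted p = 0.00075). COL4A6 had 5.72, 5.78 and 5.78 on the A549 arrays, in the same order, against 4.38 and 4.62 (1.26 ± 0.09, SE, adjusted p = 0.00264). Both genes of this pair were higher on every A549 array than on either CRL-5907 array, although all COL4A6 values lay below the array medians. COL4A1 and COL4A2 encode the chains found in all basement membranes. COL4A2 had 6.0 and 6.11 with the hairpins and 6.31 on the A549 control, against 6.11 and 6.01 in CRL-5907, so the lines overlapped. COL4A1 had 5.04, 5.15 and 5.15 in A549 against 5.31 and 5.15 in CRL-5907, and these overlapped too. The fitted differences were 0.08 ± 0.11 for COL4A2 and -0.12 ± 0.07 for COL4A1 (SE). COL4A3 and COL4A4, known from the kidney glomerulus and the lung alveolus, had fitted differences of 0.39 ± 0.13 and 0.03 ± 0.05 (SE), neither of which passed the test.

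The stretch between the starts of COL4A1 and COL4A2 is shown as the shortest of the 3, written on the plus strand at chr13:110307158-110307283 of GRCh38.p14, with the same motifs in capitals.
COL4A1-COL4A2: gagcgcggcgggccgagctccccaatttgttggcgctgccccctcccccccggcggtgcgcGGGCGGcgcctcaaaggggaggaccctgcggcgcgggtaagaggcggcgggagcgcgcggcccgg
COL4A1 is read leftward from its left end and COL4A2 rightward from its right end. It holds 1 GC box and none of the other 3 motifs.

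Laminins differed between the lines in 1 alpha and 1 beta chain. LAMA4, an alpha chain of vascular and mesenchymal basement membranes, had 3.75 and 3.84 with the hairpins and 3.70 on the A549 control, against 6.55 with overexpression and 6.46 on the CRL-5907 control. It was the 1 member at least 2-fold lower in A549, and its A549 values, all under the array medians, mean that the difference of -2.76 may be understated (-2.74 ± 0.06 fitted, SE, adjusted p = 0.000571). LAMB1, a beta chain of many laminins, had 9.50 on both hairpin arrays and 9.48 on the A549 control, against 8.44 with overexpression and 7.72 on the CRL-5907 control. The fitted LAMB1 difference was 1.41 ± 0.23 (SE, adjusted p = 0.0182); the call was lost without any 1 of the 3 A549 arrays, with adjusted p between 0.0663 and 0.0834. LAMC1, the common gamma chain, had 8.50, 8.59 and 8.42 in A549 against 8.60 and 8.41 in CRL-5907. LAMA5 and LAMB2 were likewise bright in both lines, with fitted differences of -0.18 ± 0.04 and 0.02 ± 0.06 (SE). The LAMA5 value lay just outside the threshold (adjusted p = 0.0514). LAMA1 lay between 3.57 and 3.76 on all arrays. Of the nidogens, which bridge laminin and collagen IV, NID2 had 5.72 and 6.06 with the hairpins and 5.79 on the A549 control, against 5.56 with overexpression and 4.39 on the CRL-5907 control. The NID2 control difference of 1.39 passed 2-fold, and it was 0.23 when the overexpression array took the place of the CRL-5907 control. NID1 had 4.61, 4.65 and 4.81 in A549 against 4.40 and 4.61 in CRL-5907.

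Knockdown of NEDD9 in A549 left most of these genes close to the control, and CCDC80 was the only member at least 1.5-fold lower with both hairpins. NEDD9 itself was at -0.59 with hairpin 1 and -0.41 with hairpin 2, so the targeted gene did not pass 1.5-fold with both. The member differences were therefore seen at a partial knockdown only, and a link between their size and the NEDD9 level was not tested. No member was 1.5-fold higher with both. Over all genes 0.302% were 1.5-fold lower and 0.794% higher with both hairpins, 1.10% in either direction. Centring the arrays on their medians moved the higher share of those calls to 57.7%, and a further quantile normalization to 61.6%, against 72.4%. The median difference was -0.05 with hairpin 1 and -0.01 with hairpin 2 over the members, and 0.02 and 0.00 over all genes. Of the 38 members 16 were lower than the control with both hairpins by any amount and 7 higher, where 27.7% and 39.6% of all genes were. After the arrays were centred on their medians 29 members were lower with both and 5 higher, where 48.1% and 31.3% of all genes were, so this count depends on the scaling. Both hairpins are set against the same control array, and an error of that array would shift both alike.

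CCDC80 had 5.93 with hairpin 1 and 6.05 with hairpin 2, against 6.69 on the A549 control. Both hairpin arrays were below the control, by 0.76 and 0.64 on the log2 scale, which is 40.8% and 35.9% lower. The mean difference was -0.70 ± 0.08 (SD, n = 2). limma did not call it in a fit of 3 arrays with 1 residual degree of freedom (adjusted p = 0.284). The same A549 control enters the line comparison. CCDC80 stayed above its CRL-5907 control level of 3.12 by 2.81 and 2.92 on the hairpin arrays, so its high level in A549 did not rest on that control array.
CCDC80: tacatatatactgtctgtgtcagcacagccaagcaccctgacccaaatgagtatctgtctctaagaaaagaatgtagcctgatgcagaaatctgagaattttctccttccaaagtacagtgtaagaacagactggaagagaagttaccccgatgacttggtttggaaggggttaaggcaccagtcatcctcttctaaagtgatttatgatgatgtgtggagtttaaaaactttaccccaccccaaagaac
These 250 bases before its start, on the minus strand at chr3:112641144-112641393 of GRCh38.p14, are shown because CCDC80 was the member called with both hairpins, and they hold none of the 4 motifs.

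COL12A1 and FBN2 had larger differences with 1 hairpin than with the other. COL12A1 was at 4.45 with hairpin 1 and 4.84 with hairpin 2, against 5.39 on the control, differences of -0.94 and -0.55, of which the second just missed 1.5-fold. It passed with both when the arrays were centred on their medians. Since all its values were below the array medians, a real difference and background cannot be told apart. FBN2 was at 6.20 with hairpin 1 and 6.99 with hairpin 2, against 7.21 on the control, differences of -1.01 and -0.23. With hairpin 1 alone 3 members were 1.5-fold lower (CCDC80, COL12A1 and FBN2, against 1.27% of all genes), and with hairpin 2 alone 1 was (CCDC80, against 0.913%). The difference between the hairpins was not tested.

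Smaller differences lay on the same side with both hairpins in members of several roles. COL4A2 was at -0.31 and -0.20 with hairpins 1 and 2, COL5A1 at -0.20 and -0.22, NID1 at -0.19 and -0.16, SPARC at -0.20 and -0.15 and THBS1 at -0.14 and -0.21. SPARC, a collagen-binding matricellular protein, and NID1 were below the array medians throughout. COL4A3 was higher with both hairpins (0.20 and 0.37), as were LAMC1 (0.08 and 0.17), VCAN (0.06 and 0.33), FBN1 (0.06 and 0.33) and LUM, a small proteoglycan of collagen fibrils (0.10 and 0.33). The brighter FN1 feature was at 0.06 and -0.01 with hairpins 1 and 2, and LAMB1 at 0.01 with both. The dimmer FN1 feature was lower with both hairpins, at 6.05 and 6.08 against 6.38 on the A549 control. With both features averaged the mean FN1 difference over the hairpins was -0.15, so the 2 features gave different answers for knockdown. COL6A1, a collagen VI chain above the array medians throughout, was at 6.79 and 6.52 against 6.85 on the control, so that hairpin 2 alone stood apart. For scale, the difference between the hairpin arrays had an SD of 0.199 over all genes.

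limma called 0 of the 38 members and 0 of 14232 genes with knockdown (lowest adjusted p = 0.276). Unadjusted p-values below 0.05 were found for 2220 genes, 15.6% of all with 5.92% lower, and for 4 members, all lower: CCDC80, COL5A1, TNC and NID1. For TNC the hairpin arrays held exactly equal values of 4.18 against 4.28 on the control. Of the 6 measured leukocyte markers 1 was higher with both hairpins, the lysozyme gene LYZ, which airway epithelium also expresses. It had 5.55 and 5.34 with hairpins 1 and 2 against 3.55 on the control, all below the array medians (limma adjusted p = 0.276). Another 3 were lower with both hairpins, the furthest being CD14, at -0.39 and -0.84. PTPRC stayed at 1.72.

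**Figure D3:**
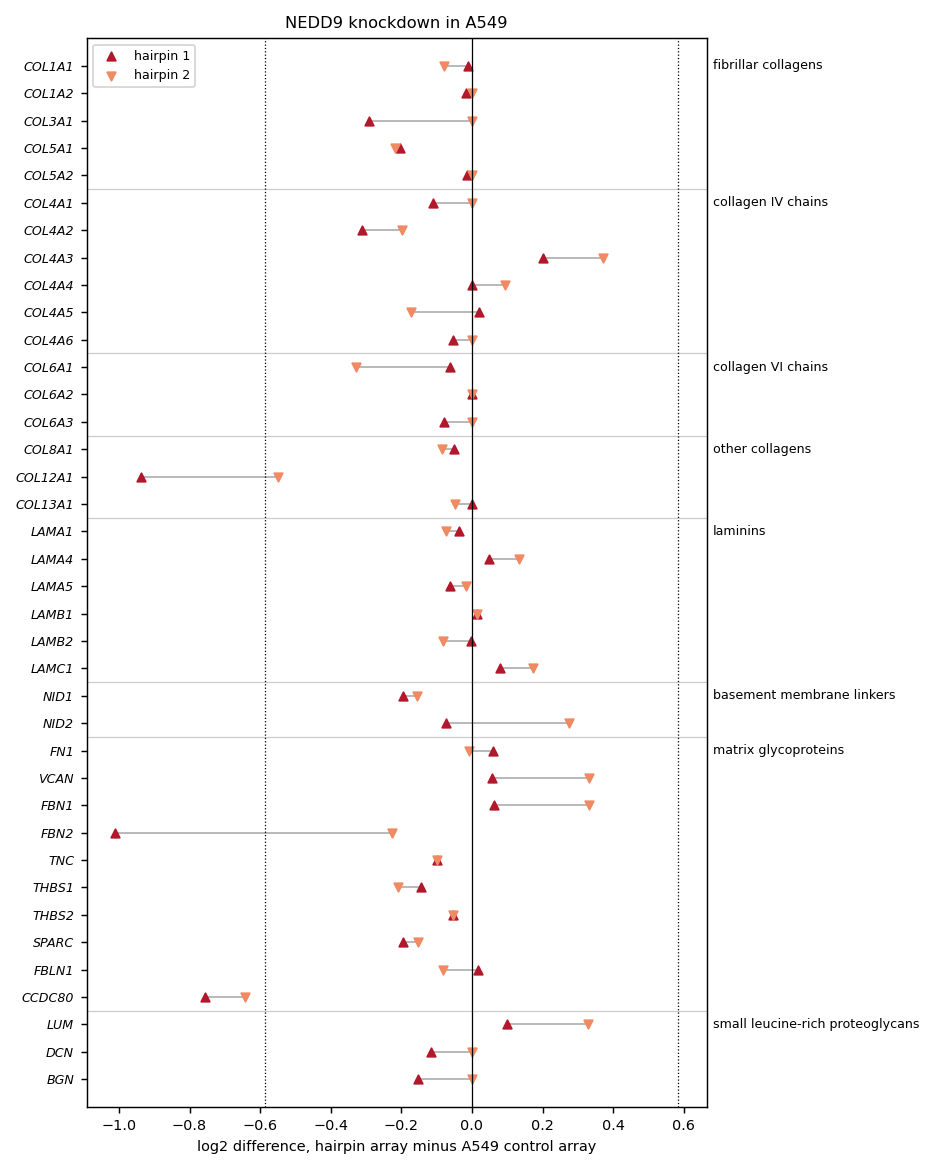
Log2 difference of each hairpin array from the A549 control array for the 38 measured members, with hairpin 1 as upward and hairpin 2 as downward triangles joined by a line. Dotted lines mark 1.5-fold; both triangles lie left of the dotted line for CCDC80 (-0.76 and -0.64), and for COL12A1 and FBN2 only that of hairpin 1 does.

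Overexpression of NEDD9 in CRL-5907 went with higher NID2, TNC and LAMB1. These 3 of 38 members were at least 1.5-fold higher and none was 1.5-fold lower, where 2.90% of all genes were higher and 1.35% lower, 4.25% in either direction. A further quantile normalization moved the higher share of all those calls to 56.6%, against 68.3%. The median difference was 0.00 over the members and 0.00 over all genes, and 19 members were higher, 14 lower and 5 exactly equal by any amount (48.1% and 42.3% of all genes were higher and lower). With 1 array in each condition there is no replicate of the overexpression. A limma contrast within a model of 4 groups over all 5 arrays, added after seeing the data, takes its spread from the hairpin arrays alone (1 residual degree of freedom). It called 0 members and 0 of 14232 genes (lowest adjusted p = 0.227). By unadjusted p at 0.05 it had 2564 of the 14232 genes and 3 of the 38 members, LAMB1, TNC and NID1. For LAMB1 and TNC the hairpin arrays held exactly equal values, which made their SE small (0.018 and 0.016, against 0.28 for NID2). Their low p-values rest on that tie and do not set them above NID2.

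NID2, a nidogen that links laminin to collagen IV, had 5.56 with overexpression against 4.39 on the control, a difference of 1.17 or 2.25-fold. TNC encodes tenascin-C, a glycoprotein of wound and tumour stroma, and had 4.96 with overexpression against 4.18 on the control, a difference of 0.78. Both arrays were below their medians for NID2 and for TNC, so these differences are less certain than that of LAMB1. LAMB1 had 8.44 with overexpression against 7.72 on the control, a difference of 0.72 or 1.65-fold, with both values well above the medians. Their levels in A549 differed in place. NID2 with overexpression came close to the A549 control (5.79), LAMB1 stayed 1.04 below it, and TNC at 4.96 passed the A549 control's 4.28. NID2 and LAMB1 share their CRL-5907 control with the line comparison, in which they were lower in CRL-5907 than in A549.

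The promoters of NID2 and TNC are shown as those of the 2 members furthest from control with overexpression, each as the 250 bases before the start on the minus strand of GRCh38.p14, NID2 at chr14:52069060-52069309 and TNC at chr9:115118158-115118407, motifs in capitals.
NID2: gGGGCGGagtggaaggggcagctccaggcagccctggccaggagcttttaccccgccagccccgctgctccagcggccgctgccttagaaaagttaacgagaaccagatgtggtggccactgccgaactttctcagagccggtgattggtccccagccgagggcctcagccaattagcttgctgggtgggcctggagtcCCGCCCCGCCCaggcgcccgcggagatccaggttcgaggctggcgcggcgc
TNC: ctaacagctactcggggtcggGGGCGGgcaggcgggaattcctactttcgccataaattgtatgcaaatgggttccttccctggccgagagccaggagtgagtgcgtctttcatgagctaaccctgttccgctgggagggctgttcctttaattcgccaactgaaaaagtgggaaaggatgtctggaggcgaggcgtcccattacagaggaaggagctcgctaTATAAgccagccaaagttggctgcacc
NID2 has 3 GC boxes and no TATA core, and TNC has 1 GC box and a TATA core at -27.

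VCAN and COL12A1 came next and missed 1.5-fold. VCAN was at 4.22 with overexpression against 3.75 on the control (0.47), and COL12A1 at 4.36 against 3.90 (0.46), all below the array medians. FN1 was at 4.69 against 4.41 (0.28), far from its A549 levels of 11.80 to 11.87. LAMC1, which forms trimers with LAMB1, was at 8.60 against 8.41 (0.19), and LAMA5 at 8.39 against 8.43 (-0.04). Of the collagen IV chains COL4A1 was at 5.31 against 5.15 (0.16), COL4A2 at 6.11 against 6.01 (0.10) and COL4A6 at 4.38 against 4.62 (-0.24), the lowest difference of any member. NID1 was at 4.40 against 4.61 (-0.21), the opposite side from NID2. The fibrillar collagens had 4 of 5 members lower and 1 exactly equal, none by more than 0.12. CCDC80 was at 3.26 against 3.12 (0.13).

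**Figure D4:**
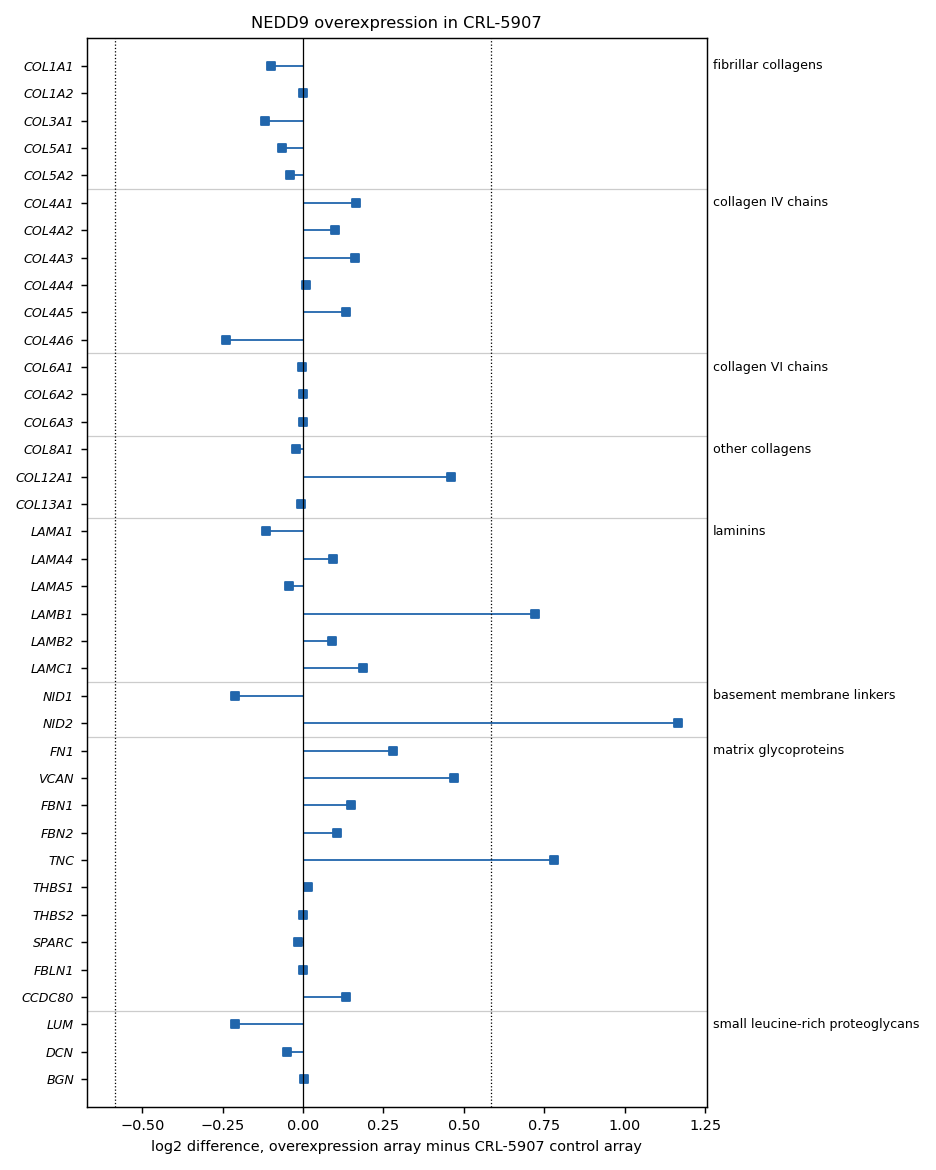
Log2 difference of the overexpression array from the CRL-5907 control array for the 38 measured members (1 array each, no error bars). Dotted lines mark 1.5-fold; NID2 (1.17), TNC (0.78) and LAMB1 (0.72) lie beyond it, and no member lies beyond it on the lower side.

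Side by side, COL12A1 was lower with both hairpins (-0.94 and -0.55) and higher with overexpression (0.46), and CCDC80 was lower with both hairpins (-0.76 and -0.64) with 0.13 on overexpression. All COL12A1 values and the CRL-5907 values of CCDC80 were below the array medians. On the values as deposited COL12A1 met the 1.5-fold rule in neither manipulation. NID2 was at -0.07 and 0.28 with the hairpins and 1.17 with overexpression. LAMB1 was at 0.01 with both hairpins and 0.72 with overexpression, and TNC at -0.10 with both and 0.78. No member passed 1.5-fold in both manipulations.

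Genes around the members give the context. Of 51 other matrix genes measured, none was 1.5-fold higher or lower with both hairpins, 1 was 1.5-fold higher with overexpression and 6 differed by 2-fold between the control arrays, 5 of them higher in A549. Over all genes 2.90% were 1.5-fold higher with overexpression and 9.96% differed by 2-fold between the controls, so both counts were near the background. The gene higher with overexpression was TGFBI, an adhesive matrix protein that TGF-beta induces, at 8.92 with overexpression against 8.31 on the control. VTN, the adhesive plasma protein vitronectin, led the line comparison with 9.29, 9.28 and 9.11 in A549 (hairpin 1, hairpin 2, control) against 4.56 and 4.36 in CRL-5907 (4.77 ± 0.10, SE, adjusted p = 0.000571). The 1 gene at least 2-fold lower in A549 was FBLN5, a fibulin of elastic fibres, at 7.25, 6.94 and 6.82 in A549 against 8.49 and 8.10 in CRL-5907 (-1.29 ± 0.19, SE, adjusted p = 0.0142). Of 27 measured genes of collagen folding, modification and secretion, 11 were at least 2-fold higher in the A549 control and none lower, against 6.44% of all genes higher. The 5-array fit called 15 of the 27 higher and none lower, against 17.7% of all genes called higher. P4HA3, a subunit of collagen prolyl hydroxylase, had 6.67, 6.62 and 6.87 in A549 against 4.39 and 4.04 in CRL-5907. The lysyl hydroxylase PLOD2 had 8.75, 8.97 and 8.95 in A549 against 7.48 and 6.85 in CRL-5907, and FKBP10, a collagen chaperone, had 8.94, 8.95 and 8.95 against 6.37 and 6.88. None of the 27 was 1.5-fold from control with both hairpins. With overexpression PLOD2 (0.62) and P3H2 (0.62), a prolyl 3-hydroxylase, were 1.5-fold higher, against 2.90% of all genes.

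Receptors and TGF-beta genes were counted in the same way. Of 23 measured receptors none was 1.5-fold from control with both hairpins, and ITGB8, an integrin subunit that activates TGF-beta, was the 1 higher with overexpression (6.56 against 5.60). Between the lines ITGB5 (9.46 against 7.47 on the controls) and SDC1 (8.20 against 6.40) were among the 5 receptors at least 2-fold higher in A549, while ITGB4, the hemidesmosome subunit, and SDC4 were the 2 at least 2-fold lower. Over all genes 6.44% were higher and 3.53% lower by that rule. Of 16 measured TGF-beta responsive and pathway genes 1 was 1.5-fold lower with both hairpins, PMEPA1, a feedback inhibitor of that pathway (7.55 and 7.70 against 8.60), where 0.302% of all genes were. TGFB1 was at -0.40 and -0.60. By any amount 9 of the 16 were lower with both hairpins and 4 higher, where 27.7% and 39.6% of all genes were. Those higher include SMAD4 (0.24 and 0.18) and TGFBR2 (0.08 and 0.23). With overexpression 5 of the 16 were 1.5-fold higher, led by TGFB3 (6.50 against 4.87) and TGFB2 (5.53 against 4.72), where 2.90% of all genes were. The 1 gene of the 16 that was lower with overexpression by any amount was CCN2 (-0.39). The control values of TGFB3 and TGFB2 were below the array median, and so was the overexpression value of TGFB2. Of the 16, 8 were at least 2-fold higher in the A549 control, led by TGFB2 (9.31 against 4.72), where 6.44% of all genes were. TGFBI and LTBP2 are counted in both the other matrix genes and the TGF-beta list.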

How the data were processed

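The deposited table holds log2 expression values. The authors made them with Affymetrix Power Tools (RMA), as listed in the submitters' processing notes; versions and genome build are not given in the sources used here. The values, 0.58 to 13.09, show a log scale, taken as base 2. Total RNA was depleted of ribosomal RNA, amplified, biotin-labelled and hybridised, 1 array per sample, per the labels' protocols. Read depth does not apply; array number limits precision. Groups follow the titles; 1 description (hairpin 2) names NEDD10, against NEDD9 in its title, which was followed.

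Of 22011 features, 14432 had 1 symbol in the platform annotation, 2408 several and 5171 were unnamed here; the brightest single-symbol feature by mean over 5 arrays stood for each of 14232 genes. Differences were taken between arrays and called at 1.5-fold (both hairpins in one direction for knockdown) or 2-fold between lines. limma 3.58.1 in R 4.3.3 (lmFit, eBayes with trend) was fitted on all genes: knockdown on 3 arrays, 1 residual degree of freedom, and lines on 5 arrays, 3 residual degrees of freedom, with Benjamini-Hochberg adjustment at 0.05. It was also run on simulated arrays with known changes, the outcome of which is not given here. Arrays of a line are not shown to be separate cultures, so p-values measure the spread between these arrays, which may be technical. Members, lists and tests were chosen with earlier results of these data known. All members could be named, with NEDD9, STK11 and the 2 highest and 2 lowest genes of each other list per comparison; FAP, PTPRC, KRT8 and LYZ were named from the marker lists. Alternatives were centring, repeated quantile normalization, averaged features, a level filter, removal of the trend with level, other folds and left-out arrays.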

Additional observations from a re-analysis of the deposited data

How the results depend on the processing

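The 1.5-fold and 2-fold member counts kept to within 1.5 times of the main count under most alternatives. With knockdown the count of 1 (CCDC80) became 2 with centred arrays (COL12A1 added) and 0 at 2-fold, and with single hairpins it was 1 to 3. With overexpression the count of 3 became 1 when only genes above the array median were used (LAMB1) and 1 at 2-fold (NID2), and the added limma contrast called 0. The mean of both FN1 features gave 4.95 between the controls, against 7.40. Between the control arrays the count of 11 was 8 to 12 under all alternatives run. Those with the hairpin arrays in place of the A549 control or the overexpression array in place of the CRL-5907 control, chosen after seeing the data, gave 10 each. Over all genes the level filter left 61 genes with knockdown, against 156, and 321 with overexpression, against 605; the shares of higher calls after rescaling stand in the results. The line fit called 10 members (8 to 11 under normalization, filter and trend alternatives, 8 to 9 with any 1 array left out) and 3949 genes (1936 to 3211 with any 1 array left out, lowest without hairpin 2, and 2395 without hairpin 1). The contrast of the controls alone gave 0 members and 0 genes. The cause of these changes was not tested, beyond the fewer genes or arrays that a filter or a left-out array leaves. No called difference changed sign. TNC was called lower in A549 only without the CRL-5907 control (-0.75, adjusted p = 0.0201) and NID2 higher only without the overexpression array (1.46, adjusted p = 0.0369). limma called 0 genes with knockdown under all 5 alternatives run (1301 to 2240 genes by unadjusted p at 0.05). No paired analysis was possible because the compared groups share fewer than 2 replicate numbers. On these arrays signal near background limits the 20 members below the median throughout.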
